A study of Arabidopsis thaliana with 12 samples.

Results

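The interaction asks whether the response of root tips to indole-3-butyric acid (IBA) differs between the ibr1ibr3ibr10 triple mutant and its Col-0 background, and for each gene whether that difference lies on the IBA medium or already on the control medium. It was taken over all 12 of the 12 arrays, as the mutant change, IBA minus DMSO, minus the Col-0 change. The 4 groups were the mutant on 10 µM IBA, Col-0 on 10 µM IBA, the mutant on DMSO solvent and Col-0 on DMSO solvent, with 3 replicates each. All were seedlings of Arabidopsis thaliana moved 3 days after germination to the test medium for 6 h, and each replicate pooled at least 120 root tip segments of about 4 mm. The mutant is a single triple mutant line, and the IBR1, IBR3 and IBR10 transcripts were not analysed here. In these bulk segments, fewer cells of a type and less RNA per cell cannot be told apart.

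IBA is an auxin precursor that peroxisomal beta-oxidation shortens to indole-3-acetic acid (IAA), the main natural auxin, and IBR1, IBR3 and IBR10 are peroxisomal enzymes of that conversion. IAA acts on transcription by removing Aux/IAA repressors, which releases targets such as the GH3 enzymes that conjugate IAA to amino acids and the LBD factors that start lateral roots. In roots the IBA-derived auxin is known for its part in root hair growth and lateral root formation.

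Each gene has 2 genotype gaps, mutant minus Col-0 on IBA and mutant minus Col-0 on DMSO, and the interaction is the gap on IBA minus the gap on DMSO. An interaction is therefore negative (here called lower) either because the mutant stands below Col-0 on IBA or because it stands above Col-0 on DMSO. The sum of both gaps tells these apart: it has the sign of the interaction where the gap on IBA is the larger in size, and the opposite sign where the gap on DMSO is. An interaction call, an adjusted p under 0.05, was assigned to the IBA side or the DMSO side if the sum was also called, and was left undecided if it was not. In this balanced design the estimates of the sum and the interaction are uncorrelated only if the spread is equal in all groups. The calls are not independent, since for each gene both tests use the same variance estimate.

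Of 22746 probe sets, 1478 were called for the interaction, which is 6.5%. They comprised 806 lower calls (3.54%) and 672 higher calls (2.95%). The IBA side held 778 of them (3.42% of the probe sets), 374 lower and 404 higher. The DMSO side held 88 (0.387%), 85 lower and 3 higher. The remaining 612 (2.69%) were undecided, 347 lower and 265 higher. Taking for each gene the probe set with the highest mean, with p-values adjusted over all 22746 probe sets, 767 of 13350 genes were called, which is 5.75%, 379 of them lower (2.84%) and 388 higher (2.91%). The IBA side held 396 genes (2.97%), the DMSO side 41 (0.307%) and the undecided class 330 (2.47%). On the DMSO side 38 of the 41 genes were lower and 3 higher, whereas the IBA side held 177 lower and 219 higher genes. Over all genes the sum of gaps was called in 8.5%, the gap on IBA in 9.99% and the gap on DMSO in 2.04%.

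**Figure D1:**
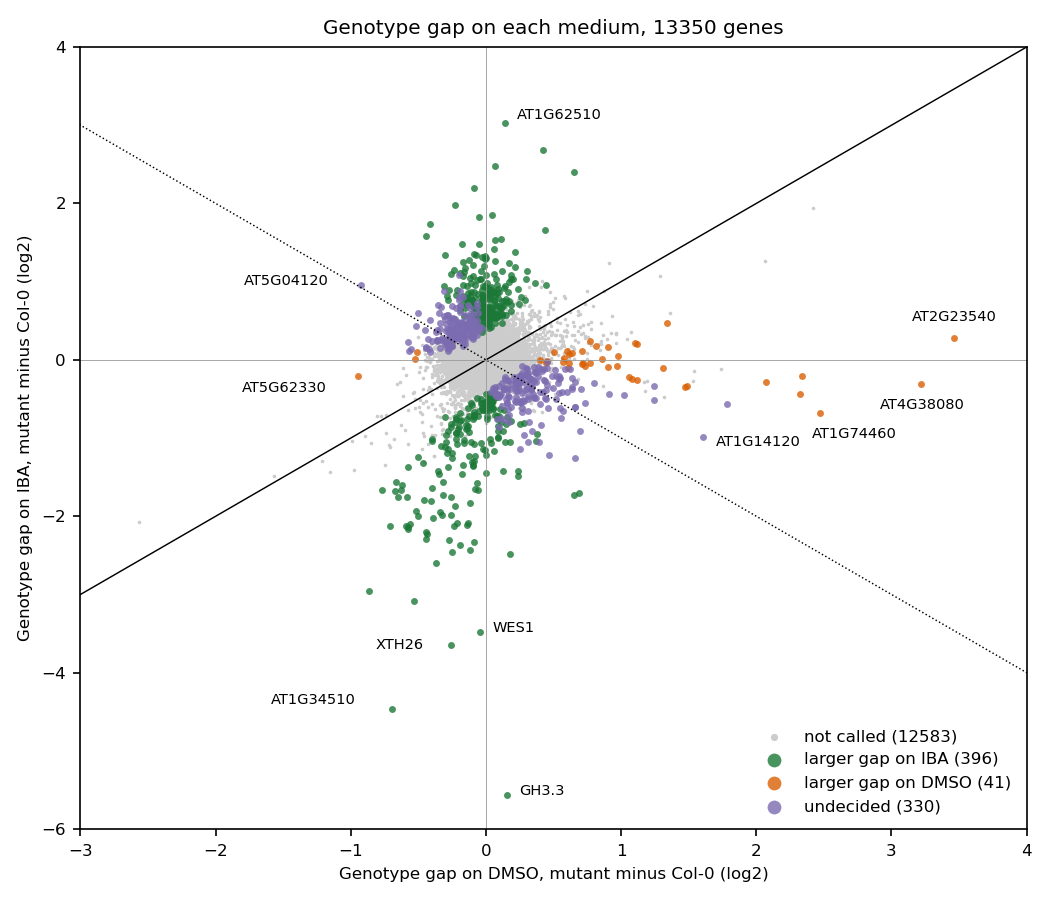
Each point is 1 of 13350 genes, with the genotype gap on DMSO on the horizontal axis and the genotype gap on IBA on the vertical axis, both mutant minus Col-0 in log2 units. On the solid line both gaps are equal and the interaction is 0, on the dotted line they are equal in size and opposite in sign, and the 396 IBA-side genes lie along the vertical axis while the 41 DMSO-side genes lie along the horizontal axis, mostly to its right.

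The values on single arrays follow the assignment that they were used to make, so they are given as a description. In all 396 IBA-side genes the arrays of the genotypes did not overlap on IBA, and in 108 of them they did not overlap on DMSO either. In all 41 DMSO-side genes they did not overlap on DMSO, and in 3 of them on IBA. Over all genes the share without overlap was 22.5% on IBA and 20.7% on DMSO.

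The responses to IBA within each genotype come from the same arrays as the assignment and are given as a description. Of the 38 DMSO-side lower genes, 32 rose on IBA in the mutant and 37 in Col-0, with a median response of 0.68 in the mutant and 1.71 in Col-0 (log2). Over all genes, 4.46% rose and 3.69% fell on IBA in the mutant, and 9.87% rose and 11.5% fell in Col-0. The median level of the 38 DMSO-side lower genes was 7.51 in mutant IBA tips and 7.62 in Col-0 IBA tips, against 6.77 in mutant DMSO tips and 5.37 in Col-0 DMSO tips. On IBA the genotype gap was called in 0 of the 38, and on DMSO it was called in all 38. Most of these genes thus rose in both genotypes, from a higher level in the mutant. The 177 IBA-side lower genes had medians of 5.13 in mutant IBA tips and 6.20 in Col-0 IBA tips, against 5.50 in mutant DMSO tips and 5.62 in Col-0 DMSO tips. In the mutant 10 of them rose and 70 fell, while 147 rose in Col-0. The 219 IBA-side higher genes had medians of 6.63 in mutant IBA tips and 5.81 in Col-0 IBA tips, against 6.64 in mutant DMSO tips and 6.66 in Col-0 DMSO tips. In the mutant 8 of them fell and 34 rose, while 193 fell in Col-0.

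**Figure D2:**
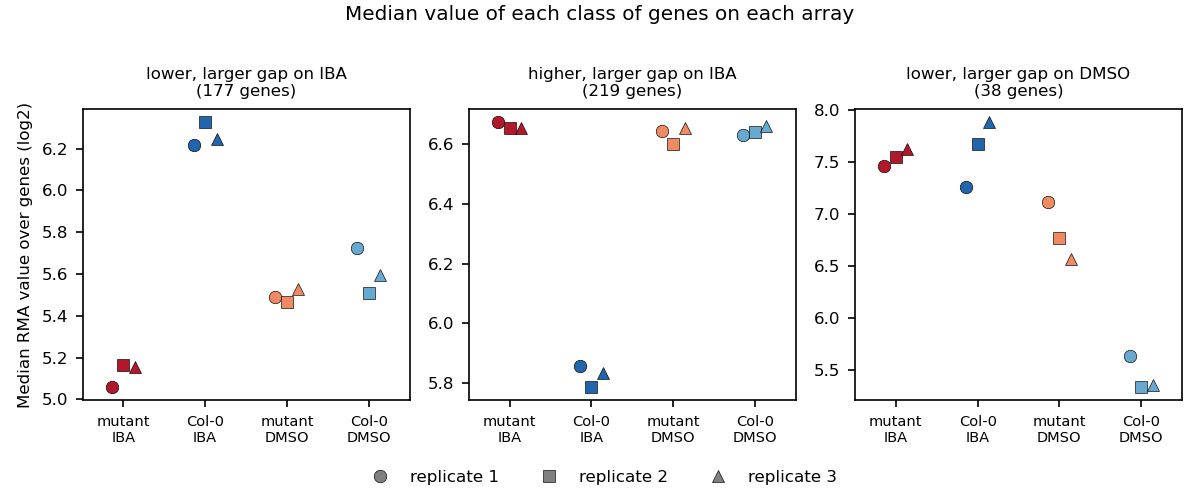
The vertical axis is the median RMA value (log2) over the genes of a class on each of the 12 arrays, with the groups along the horizontal axis and the marker shape giving the replicate number. In the left and middle panels the Col-0 IBA arrays stand apart from the other 9 arrays, and in the right panel the Col-0 DMSO arrays do.

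GH3.3, which conjugates IAA to amino acids, had the most negative interaction on the IBA side. It read 2.51, 2.29 and 2.29 on the mutant IBA arrays, against 7.56, 7.77 and 8.46 on the Col-0 IBA arrays (log2). On DMSO it read 2.92, 2.65 and 2.76 in the mutant, against 2.70, 2.71 and 2.45 in Col-0. Only the Col-0 IBA arrays were high, and the genotypes overlapped on DMSO. The interaction was -5.72 (SE 0.25, adjusted p = 1.5e-08), made of a gap of -5.57 on IBA and of 0.16 on DMSO. The other 3 group means were dim, that is under the level of 3.24 that 30% of probe set means lie below, and with them raised to that level the interaction was -4.69.

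WES1 (GH3.5), another IAA-conjugating enzyme, read 4.87, 4.91 and 4.93 in mutant IBA tips, against 8.27, 8.52 and 8.36 in Col-0 IBA tips. The DMSO arrays read 5.77, 6.14 and 6.11 in the mutant and 6.23, 5.96 and 5.98 in Col-0. Here the mutant arrays on IBA also lay below every DMSO array, and the mutant response itself was -1.11. The interaction of WES1 was -3.43 (SE 0.15, adjusted p = 1.76e-08), with a gap on DMSO of -0.05 (95% interval -0.28 to 0.19).

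AT1G34510 read 3.41, 3.84 and 3.00 in mutant IBA tips and 7.88, 7.92 and 7.83 in Col-0 IBA tips. The DMSO arrays read 5.97, 5.86 and 6.24 in the mutant and 7.03, 6.52 and 6.60 in Col-0. The genotypes did not overlap on either medium, and both gaps were negative, -4.46 on IBA and -0.70 on DMSO, where the adjusted p was 0.0599. Its interaction was -3.76 (SE 0.25), with a response of -2.61 in the mutant and 1.16 in Col-0. The next 5 IBA-side lower genes were XTH26 (-3.38), AT1G64405 (-2.66), AT1G34330 (-2.54), AT5G67430 (-2.39) and JAL22 (-2.38). XTH26 encodes a xyloglucan endotransglucosylase/hydrolase of the cell wall, AT1G34330 is a transcribed pseudogene in RefSeq, and JAL22 encodes a jacalin-related lectin. AT1G34330 had called gaps of 1 sign on both media (-3.08 and -0.54), and AT5G67430 had called gaps of opposite sign (-1.71 and 0.69). JAL22 was undecided when any 1 array other than Col-0 IBA replicate 1 or mutant IBA replicate 2 was left out, and its interaction was called in all 12 of these fits.

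AT1G62510 had the largest IBA-side interaction with a positive sign. It read 8.38, 8.35 and 8.55 in mutant IBA tips, against 5.58, 5.08 and 5.53 in Col-0 IBA tips. On DMSO it read 7.03, 6.83 and 6.86 in the mutant, against 6.94, 6.64 and 6.73 in Col-0. The mutant IBA arrays were above all DMSO arrays and the Col-0 IBA arrays were below all of them, and both responses were called, at 1.51 in the mutant and -1.38 in Col-0. The interaction was 2.89 (SE 0.18, adjusted p = 4.21e-07), with a gap of 3.03 on IBA and of 0.14 on DMSO (95% interval -0.13 to 0.41).

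AT1G14550 had the same form. It read 6.59, 6.65 and 6.57 in mutant IBA tips and 3.81, 3.89 and 4.67 in Col-0 IBA tips, against 5.63, 5.41 and 5.46 in mutant DMSO tips and 5.34, 5.46 and 5.49 in Col-0 DMSO tips. The mutant response was 1.10 and the Col-0 response -1.31, which gave an interaction of 2.41 (SE 0.24). AT4G01140 differed from both in that the mutant hardly moved. It read 7.44, 7.35 and 7.43 in mutant IBA tips and 5.40, 4.85 and 5.39 in Col-0 IBA tips, against 7.35, 7.30 and 7.37 in mutant DMSO tips and 7.36, 7.38 and 7.55 in Col-0 DMSO tips. Only its Col-0 IBA arrays were low, and its interaction was 2.28 (SE 0.17), with a response of 0.07 in the mutant and -2.21 in Col-0. The next 5 were AT2G40250 (2.27), AT4G25250 (2.20), AT1G49030 (2.14), XTH16 (2.03) and AT3G59370 (1.88). Their gaps on IBA were 1.59 to 2.69 and their gaps on DMSO -0.44 to 0.42, none of the gaps on DMSO called. With dim means raised, AT2G40250 had an interaction of 1.50. AT1G49030 was undecided without Col-0 IBA replicate 2, mutant IBA replicate 1, or replicate 1 or 2 of either DMSO group.

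On the DMSO side AT4G38080 had the most negative interaction. It read 7.86, 7.73 and 7.88 in mutant IBA tips, against 7.32, 8.33 and 8.75 in Col-0 IBA tips. The DMSO arrays read 7.30, 6.22 and 5.76 in the mutant, against 4.03, 2.82 and 2.76 in Col-0. The genotypes overlapped on IBA and did not on DMSO, where every mutant array was above every Col-0 array. The interaction was -3.53 (SE 0.58, adjusted p = 0.00175), with a gap of 3.22 (SE 0.41) on DMSO and of -0.31 on IBA (95% interval -1.19 to 0.57).

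AT2G23540 read 7.10, 7.27 and 7.10 in mutant IBA tips and 5.19, 7.56 and 7.89 in Col-0 IBA tips. On DMSO it read 7.56, 6.16 and 5.68 in the mutant and 3.85, 2.50 and 2.67 in Col-0. Every Col-0 DMSO array was below every other array, and mutant DMSO replicate 1 was above all mutant IBA arrays. Its interaction was -3.18 (SE 0.85, adjusted p = 0.0394), with a gap of 3.46 on DMSO and of 0.28 on IBA. The call was lost when any 1 of 9 arrays was left out, all but Col-0 DMSO replicate 1, Col-0 IBA replicate 1 and mutant DMSO replicate 3, with values between -4.03 and -2.63 and adjusted p of up to 0.111.

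AT1G74460 read 8.88, 9.08 and 9.05 in mutant IBA tips and 9.13, 9.73 and 10.19 in Col-0 IBA tips. The DMSO arrays read 8.36, 7.66 and 7.11 in the mutant and 5.74, 5.00 and 4.97 in Col-0. The genotypes did not overlap on either medium, with the mutant below Col-0 on IBA and above it on DMSO. The gap on DMSO was 2.47 (SE 0.30) and the gap on IBA, not called, was -0.68 (95% interval -1.32 to -0.03), so that 78.5% of the interaction of -3.15 came from DMSO.

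AT1G68850 (-2.76), AT5G12420 (-2.54), AT3G50400 (-2.36), AT5G13900 (-1.83) and AT4G36610 (-1.81) completed the 8 largest. The gaps of these 5 on DMSO were 1.48 to 2.34 and their gaps on IBA -0.43 to -0.20. AT1G68850 was undecided when any 1 array was left out other than Col-0 IBA replicate 2 or 3, mutant DMSO replicate 3 or Col-0 DMSO replicate 1. With limma's trend and robust options AT1G68850, AT3G50400 and AT1G74460 were undecided and AT2G23540 was not called (adjusted p = 0.144).

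Only 9 of the 38 DMSO-side lower genes have a gene symbol in RefSeq. All 9 are given here, 5 of them chosen after their values were seen: LCR69, JAL33, ATC, IAGLU and MT1C. The largest was LCR69, whose RefSeq synonym is the defensin PDF2.2, with an interaction of -1.37 (SE 0.20), a gap of 1.11 on DMSO and of -0.25 on IBA. The lectin JAL33 had an interaction of -0.92, ATC of -0.64, and the metallothionein MT1C of -0.41. IAGLU, which attaches glucose to IAA, had an interaction of -0.48 (SE 0.12, adjusted p = 0.0269), from a gap of 0.60 on DMSO and of 0.12 on IBA. The other 4, UGT73B1, ATG8F, UGT87A2 and LTI30, belong to function lists and are described with them. AT2G21640, chosen after its values were seen, was the exception to the rise in Col-0. Its level was 4.91 in mutant IBA tips and 4.71 in Col-0 IBA tips, against 5.90 in mutant DMSO tips and 4.78 in Col-0 DMSO tips, and its response was -0.99 in the mutant and -0.07, not called, in Col-0.

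The DMSO-side lower genes also shared an order of the single arrays. In 25 of the 38, replicate 1 was the highest of 3 in both genotypes on DMSO, which is 65.8%, against 10.3% of all genes. In 30 of the 38, replicate 1 was the lowest of the Col-0 IBA arrays, which is 78.9%, against 24.1% of all genes. Replicates of the same number were not treated as pairs. The median difference of same-numbered DMSO arrays, mutant minus Col-0, was 0.91, 0.88 and 0.82 for replicates 1, 2 and 3. These genes were assigned by their gap on DMSO, so nothing is read from these differences. The part of this array order in the DMSO-side calls was not tested. The number of DMSO-side probe sets, 88, was 45 without mutant DMSO replicate 1, 57 without Col-0 DMSO replicate 3 and 58 without Col-0 IBA replicate 2.

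The DMSO side held 3 higher genes. AT5G62330 read 6.79, 6.53 and 6.61 in mutant IBA tips and 6.86, 6.70 and 6.98 in Col-0 IBA tips, against 6.45, 6.59 and 6.76 in mutant DMSO tips and 7.69, 7.45 and 7.50 in Col-0 DMSO tips. EXLA2, an expansin-like protein, read 5.49, 5.44 and 5.56 in mutant IBA tips and 5.39, 5.52 and 5.29 in Col-0 IBA tips, against 6.20, 6.37 and 6.22 in mutant DMSO tips and 6.72, 6.74 and 6.86 in Col-0 DMSO tips. AT1G52060 read 10.13, 10.11 and 10.15 in mutant IBA tips and 10.23, 10.01 and 10.11 in Col-0 IBA tips, against 10.00, 10.11 and 10.23 in mutant DMSO tips and 10.60, 10.59 and 10.73 in Col-0 DMSO tips. In all 3 the Col-0 DMSO arrays were the highest of the 12. Their interactions were 0.74 (SE 0.15), 0.61 (SE 0.11) and 0.54 (SE 0.12). EXLA2 also fell in the mutant, with a response of -0.77, while AT5G62330 and AT1G52060 had mutant responses of 0.04 and 0.02. EXLA2 was undecided when any 1 array was left out other than mutant IBA replicate 3, Col-0 IBA replicate 3, mutant DMSO replicate 2 or Col-0 DMSO replicate 1.

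**Figure D3:**
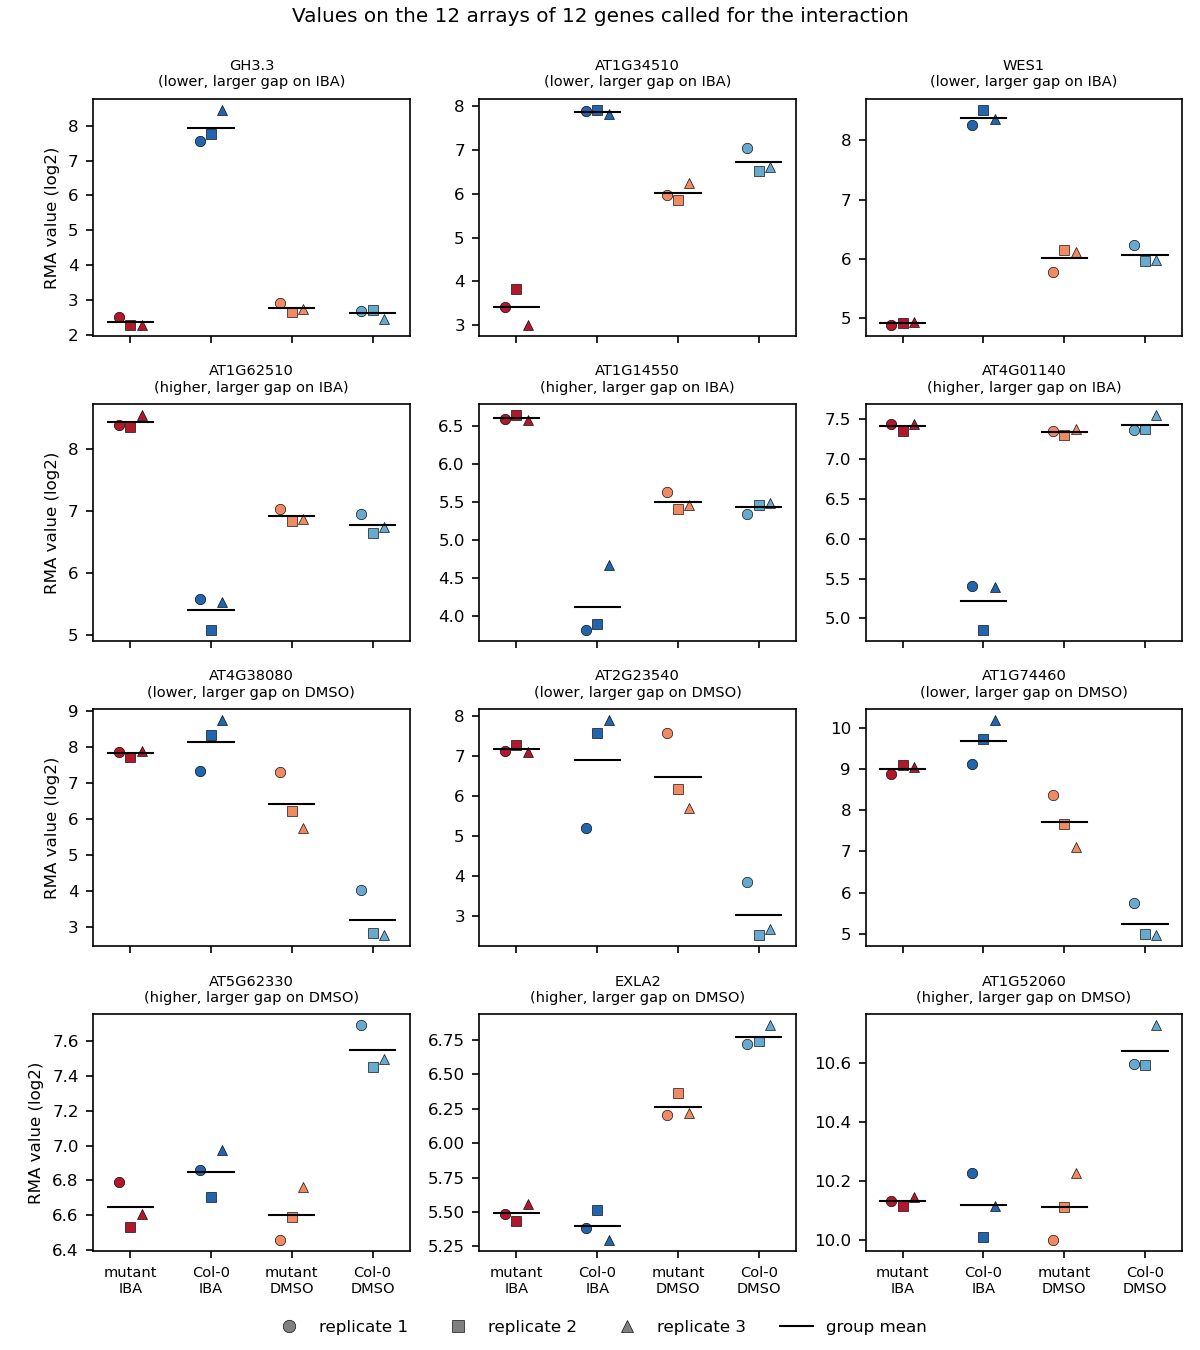
Each panel shows the RMA value (log2, vertical axis) of 1 gene on the 12 arrays, with the groups along the horizontal axis, the marker shape giving the replicate and the line the group mean. In the upper 2 rows the genotypes stand farther apart on IBA, and in the lower 2 rows on DMSO.

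The undecided calls included genes with gaps of about equal size and opposite sign. AT5G04120 read 5.78, 5.90 and 5.91 in mutant IBA tips and 4.95, 4.94 and 4.85 in Col-0 IBA tips, against 6.76, 7.19 and 7.74 in mutant DMSO tips and 8.30, 7.97 and 8.21 in Col-0 DMSO tips. The mutant was thus above Col-0 on IBA and below it on DMSO, with no overlap on either medium. Its gaps of 0.95 and -0.92 made an interaction of 1.88 (SE 0.25, adjusted p = 0.000315), although both genotypes fell on IBA, with responses of -1.37 in the mutant and -3.25 in Col-0.

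AT1G14120, placed in the auxin inactivation list by its locus, read 5.02, 5.56 and 5.21 in mutant IBA tips and 5.14, 6.88 and 6.76 in Col-0 IBA tips. On DMSO it read 5.30, 4.91 and 4.48 in the mutant and 4.05, 2.94 and 2.87 in Col-0. The response was 0.37, not called, in the mutant and 2.97 in Col-0. Its interaction was -2.60 (SE 0.57, adjusted p = 0.013), with a gap of -0.99 on IBA (adjusted p = 0.156) and of 1.61 on DMSO (adjusted p = 0.0537).

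AT4G23670 read 6.49, 6.75 and 6.35 in mutant IBA tips and 6.15, 7.74 and 7.41 in Col-0 IBA tips, against 6.94, 6.33 and 6.48 in mutant DMSO tips and 5.73, 4.53 and 4.15 in Col-0 DMSO tips. AT2G16005 read 3.64, 3.76 and 3.56 in mutant IBA tips and 4.18, 5.71 and 4.84 in Col-0 IBA tips, against 4.33, 3.74 and 3.89 in mutant DMSO tips and 3.64, 3.45 and 2.90 in Col-0 DMSO tips. In both genes Col-0 rose on IBA, and the mutant responses of -0.05 for AT4G23670 and -0.34 for AT2G16005 were not called. Their interactions were -2.35 (SE 0.55) and -1.92 (SE 0.41). The interaction of AT4G23670 was not called when Col-0 DMSO replicate 2 or 3, Col-0 IBA replicate 2 or 3 or mutant DMSO replicate 1 was left out, with values of -2.82 to -2.02 over all 12 fits. AT1G56320, the fourth of the undecided lower genes, had an interaction of -1.75 (SE 0.25), 71.0% of it from DMSO, and was on the DMSO side without Col-0 IBA replicate 3 or mutant DMSO replicate 3.

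AT5G43520 read 6.36, 6.16 and 6.23 in mutant IBA tips and 5.63, 4.44 and 5.43 in Col-0 IBA tips, against 5.45, 5.22 and 5.21 in mutant DMSO tips and 5.52, 5.27 and 5.68 in Col-0 DMSO tips. AT2G02620 read 4.24, 4.43 and 4.32 in mutant IBA tips and 3.35, 3.54 and 3.44 in Col-0 IBA tips, against 4.65, 4.72 and 4.53 in mutant DMSO tips and 4.63, 4.90 and 5.30 in Col-0 DMSO tips. Both separated the genotypes on IBA and overlapped on DMSO, but their sums of gaps missed the threshold with adjusted p of 0.111 and 0.0758. Their interactions were 1.28 (SE 0.32) and 1.19 (SE 0.19), and that of AT1G07690 was 1.10 (SE 0.24). The call of AT5G43520 was lost without replicate 1 or 3 of mutant IBA or Col-0 DMSO or replicate 2 or 3 of mutant DMSO, and it was on the IBA side without Col-0 IBA replicate 1. AT2G02620 was on the IBA side without Col-0 DMSO replicate 3. Undecided therefore means that the larger gap was not shown, not that the gaps were equal.

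By function, 446 genes fell in lists made from gene symbols, family names and loci, and 69 of them were called, which is 15.5%, against 5.75% of all genes. The lists were chosen with results of these data in view, so nothing is read from that share. By side, 41 of the 69 were on the IBA side, 28 lower and 13 higher, and 6 on the DMSO side, 5 lower and 1 higher. The other 22 were undecided, 14 lower and 8 higher. Of the 39 lists with at least 3 measured genes, 21 held an IBA-side gene and 4 held a DMSO-side gene. In 13 there was no call among the genes that they matched, as in the class III peroxidase list with 0 of 6. Most called genes are outside these counts: 698 of the 767 lay in no list, and 645 of the 767 had only a locus name. A list, also one without a call, can lack members of its family that have only a locus name. Genes described above at the top of their class, such as AT1G34510, AT1G14550 and AT1G68850, were in no list. The split by function therefore covers only the genes that the lists matched.

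Of the 12 genes called in the auxin inactivation, lateral root, transport and Aux/IAA lists, 11 were on the IBA side, where 396 of all 767 called genes lay (51.6%). Nothing is read from the difference, since the lists were chosen with these data known. IAGLU, called on the DMSO side, was not matched by these lists and is not in their counts. Of 10 measured genes of the GH3 family and other auxin inactivation, 5 were called, all lower, 4 of them on the IBA side. Beside GH3.3 and WES1 these were GH3.1, with an interaction of -1.41 (SE 0.16) and gaps of -1.73 on IBA and -0.32 on DMSO, and GH3.17, with -0.60 (SE 0.11) and gaps of -0.56 and 0.03. The fifth was AT1G14120. AT1G14130, also listed by its locus, was not called, at -0.47 (95% interval -0.83 to -0.12), with levels of 6.57 ± 0.09 in mutant IBA tips and 6.51 ± 0.28 in Col-0 IBA tips, against 5.50 ± 0.07 in mutant DMSO tips and 4.96 ± 0.09 in Col-0 DMSO tips (SD, n = 3). Its gap on DMSO of 0.53 was called. GH3.9, UGT74D1, UGT84B1 and UGT84B2 were not called, with interactions of 0.13 to 0.29. Of these, UGT74D1 and UGT84B1 attach glucose to auxin, as IAGLU does. The list's median interaction was -0.54, against 0.02 over all genes.

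The lateral root list had 4 calls among 5 measured genes, all on the IBA side. LBD16, a transcription factor needed for lateral root initiation, averaged 3.36 ± 0.03 in mutant IBA tips and 5.69 ± 0.25 in Col-0 IBA tips, against 4.13 ± 0.10 in mutant DMSO tips and 4.22 ± 0.03 in Col-0 DMSO tips (SD, n = 3), and its interaction was -2.24 (SE 0.15). Its homologue LBD29 had an interaction of -1.88 (SE 0.23), or -1.28 with dim means raised. PUCHI, an AP2/ERF factor of primordium patterning, had -1.07 (SE 0.27), which was not called in 6 of the 12 fits that leave out 1 array. Those arrays were Col-0 DMSO replicate 1, mutant DMSO replicates 1 and 3 and the 3 mutant IBA arrays, with values of -1.29 to -0.79 over all 12 fits. AT5G66815, listed by its locus, went the other way at 1.81 (SE 0.14). It averaged 6.40 ± 0.20 in mutant IBA tips and 4.55 ± 0.11 in Col-0 IBA tips, against 6.84 ± 0.11 in mutant DMSO tips and 6.80 ± 0.03 in Col-0 DMSO tips (SD, n = 3). CR4, a receptor kinase, was not called, at -0.42 (95% interval -0.68 to -0.16), and was called and undecided without Col-0 IBA replicate 1 or 3. The list's gaps on DMSO lay between -0.35 and 0.16, and none was called.

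In auxin transport, 2 of 3 measured genes were called, both lower on the IBA side. WAG2, a kinase that acts on PIN auxin carriers, had an interaction of -1.18 (SE 0.17), and AT1G72140, listed by its locus, of -0.996 (SE 0.21). PID2, another kinase of the family, had -0.06 (95% interval -0.38 to 0.26) at dim levels. Of 7 measured Aux/IAA repressor genes 1 was called: IAA29, at -0.99 (SE 0.15), or -0.74 with dim means raised. IAA31 had -0.84 (SE 0.25, adjusted p = 0.0671), called on the IBA side without replicate 1 of Col-0 on IBA or on DMSO, and IAA18, IAA20, IAA30, IAA33 and IAA34 had -0.38 to 0.19. Of the 4 measured auxin biosynthesis genes, YUC2, YUC4, YUC6 and YUC11, none was called by limma and 0 had an unadjusted p under 0.05, with interactions of 0.10 to 0.38. In the cytokinin list RR16, a response regulator, was the 1 call among 7, at -1.01 (SE 0.18), with called gaps on both media (-1.68 on IBA and -0.67 on DMSO) and -0.52 with dim means raised.

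Of 10 measured XTH genes, whose products cut and rejoin xyloglucan, 6 were called. XTH26, XTH33, XTH32 and XTH19 were IBA-side lower, XTH16 was IBA-side higher and XTH21 was undecided and higher. XTH26 averaged 2.46 ± 0.04 in mutant IBA tips and 6.10 ± 0.09 in Col-0 IBA tips, against 2.80 ± 0.10 in mutant DMSO tips and 3.06 ± 0.19 in Col-0 DMSO tips (SD, n = 3). XTH16 averaged 7.11 ± 0.18 in mutant IBA tips and 5.52 ± 0.54 in Col-0 IBA tips, against 7.45 ± 0.03 in mutant DMSO tips and 7.90 ± 0.08 in Col-0 DMSO tips (SD, n = 3). The XTH family thus held IBA-side genes of either sign, with XTH26 high and XTH16 low in Col-0 on IBA. XTH33 had called gaps on both media, -2.12 on IBA and -0.71 on DMSO, and an interaction of -1.41 (SE 0.19).

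Of 19 expansins, which loosen walls, 5 were called. EXPA8, at 1.41 (SE 0.13), and EXPB1, at 1.404 (SE 0.20), were IBA-side higher. EXPA4, at -1.09 (SE 0.14), and EXPA18, at -0.85 (SE 0.13), were IBA-side lower, and EXLA2 was on the DMSO side. EXPA4 was undecided when any 1 array was left out other than Col-0 IBA replicate 1 or replicate 2 of either DMSO group. Of 15 genes of the cellulase and glucanase families, GH9C2 (-0.66) and GH9C1 (-0.62) were lower and GH9B17 (0.89) and GH9B13 (0.91) higher, all on the IBA side, GH9B17 at 0.0922 with dim means raised. Of 24 TBL genes, which acetylate wall polysaccharides, the 4 called were all higher, at 0.49 to 0.61: TBL37, TBL38 and AT2G31110 on the IBA side and TBL32 undecided. The call of AT2G31110 was lost without replicate 1 or 2 of mutant IBA or mutant DMSO, Col-0 IBA replicate 1, or Col-0 DMSO replicate 1 or 3. Among the 5 pectin enzymes and inhibitors that the list matched, ATPMEPCRB was IBA-side lower (-1.41, or -0.85 with dim means raised) and PMEPCRF was undecided and lower (-0.78). PMEPCRF had a called gap of 0.55 on DMSO and a gap of -0.23 on IBA that was not called.

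The UDP-glycosyltransferases, which attach sugars to hormones and other small molecules, had 5 calls among 50 measured genes, all lower. As deposited 1 was on the IBA side and 2 were on the DMSO side, but with median centring or spike scaling none was on the DMSO side. IAGLU, described above on the DMSO side, has no UGT symbol and is not among these 50. UGT76D1 was on the IBA side, at -1.79 (SE 0.24), and averaged 3.58 ± 0.33 in mutant IBA tips and 5.81 ± 0.37 in Col-0 IBA tips, against 3.65 ± 0.07 in mutant DMSO tips and 4.09 ± 0.14 in Col-0 DMSO tips (SD, n = 3). UGT73B1 was on the DMSO side, at -0.72 (SE 0.14), and averaged 7.08 ± 0.11 in mutant IBA tips and 7.19 ± 0.18 in Col-0 IBA tips, against 6.04 ± 0.02 in mutant DMSO tips and 5.44 ± 0.11 in Col-0 DMSO tips (SD, n = 3). UGT73B1 rose on IBA in both genotypes, while UGT76D1 rose in Col-0 and had a mutant response of -0.08, not called. UGT87A2, at -0.56 (SE 0.15), rose in both genotypes as well, but its call was lost without any 1 of 7 arrays: Col-0 DMSO replicates 2 and 3, Col-0 IBA replicates 2 and 3, mutant DMSO replicates 1 and 2 and mutant IBA replicate 1, with values of -0.65 to -0.46. With median centring UGT87A2 was not called (-0.50, adjusted p = 0.0611) and UGT73B1 was undecided, as it also was with quantile normalization. With spike scaling neither was called, at -0.02 for UGT87A2 and -0.18 for UGT73B1. UGT76C2 (-0.79) and UGT84A1 (-0.54) were undecided. UGT73B1 was undecided when any 1 array was left out other than mutant IBA replicate 1, Col-0 IBA replicate 3 or Col-0 DMSO replicate 2 or 3.

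Of 13 glutathione transferases, 5 were called. GSTU20 was IBA-side lower, at -1.73 (SE 0.20), with 4.20 ± 0.31 in mutant IBA tips and 6.19 ± 0.14 in Col-0 IBA tips, against 5.25 ± 0.03 in mutant DMSO tips and 5.51 ± 0.20 in Col-0 DMSO tips (SD, n = 3). GSTU27 was IBA-side higher (0.80), GSTF4 (-1.28) and GSTU16 (-0.82) were undecided and lower, and GSTU28 (1.01) was undecided and higher. The gaps of GSTU16 were -0.41 on IBA and 0.40 on DMSO, both called, and which of them was larger was not shown. Among 8 oxidoreductases of xenobiotic and mitochondrial stress, AT1G60750 was the 1 call and was on the DMSO side. It averaged 7.50 ± 0.01 in mutant IBA tips and 7.03 ± 0.25 in Col-0 IBA tips, against 5.34 ± 0.34 in mutant DMSO tips and 4.00 ± 0.15 in Col-0 DMSO tips (SD, n = 3). The mutant was above Col-0 on both media, by 1.34 on DMSO and by 0.47, not called, on IBA, and the interaction was -0.87 (SE 0.22). This call was lost without any 1 of 6 arrays: Col-0 DMSO replicate 3, Col-0 IBA replicate 3, mutant DMSO replicates 1 and 2 and mutant IBA replicates 1 and 3, with values of -1.07 to -0.73.

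The autophagy, LEA and senescence list had 6 calls among 21 genes. ATG8F, of the ATG8 proteins that coat autophagosomes, was on the DMSO side at -0.60 (SE 0.14), with gaps of -0.03 on IBA and 0.57 on DMSO. With Col-0 IBA replicate 2 or Col-0 DMSO replicate 3 left out it was not called, and without mutant IBA replicate 2 or 3, mutant DMSO replicate 1 or 3 or Col-0 DMSO replicate 2 it was undecided, with values of -0.71 to -0.52 over all 12 fits. LTI30, a dehydrin, was also on the DMSO side, at -0.53 (SE 0.13), and averaged 10.95 ± 0.08 in mutant IBA tips and 10.70 ± 0.16 in Col-0 IBA tips, against 9.71 ± 0.08 in mutant DMSO tips and 8.94 ± 0.07 in Col-0 DMSO tips (SD, n = 3). The 2 other ATG8 genes called, ATG8B (-0.92) and ATG8G (-0.46), were undecided, as was LEA (0.56), whose 4 group means were all dim. AT1G54410 was IBA-side lower (-0.50), and undecided when any 1 array was left out other than mutant IBA replicate 1 or replicate 3 of either Col-0 group. The call of ATG8G was lost without mutant DMSO replicate 1 or 3, Col-0 IBA replicate 2 or Col-0 DMSO replicate 2 or 3. All 3 ATG8 calls were lower, but no common side was shown. ATG8C, ATG8D, ATG8E, ATG8H, APG8A and APG8H of the same list were not called, so no direction is read for the family.

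**Figure D4:**
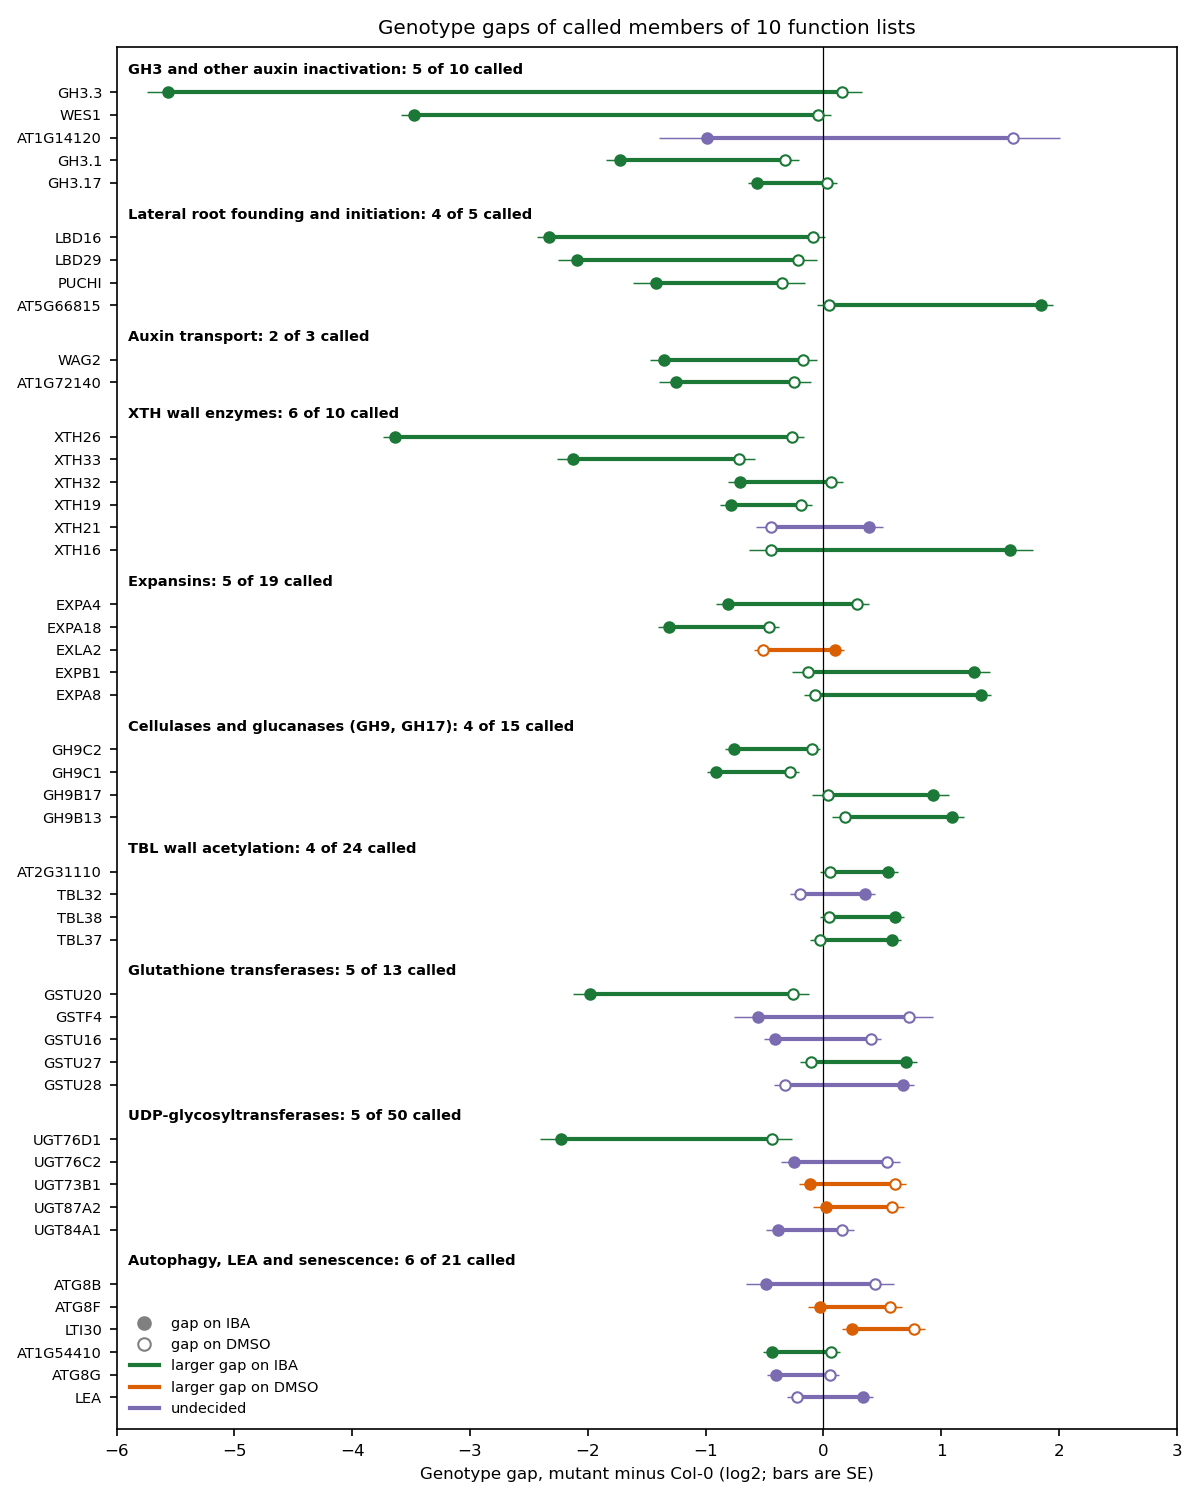
For each called member of 10 function lists, the filled point is the genotype gap on IBA and the open point the gap on DMSO (mutant minus Col-0, log2, horizontal axis), with standard errors, and the line between them is the interaction. The open points of the GH3, lateral root and transport genes lie between -0.35 and 0.16 except that of AT1G14120 at 1.61, and those of UGT73B1, UGT87A2, ATG8F and LTI30 lie between 0.57 and 0.77.

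Among the remaining lists, the bZIP genes bZIP44, EEL and AT4G38900 were IBA-side lower (-0.62, -1.07 and -0.59) among 26 bZIP and homeobox genes, EEL being undecided without mutant IBA replicate 3, Col-0 IBA replicate 2 or mutant DMSO replicate 2. The laccase and blue copper protein list had 1 call among 5, LAC16, undecided at -1.60 (SE 0.16) with called gaps of -0.90 on IBA and 0.70 on DMSO. CYP718 was IBA-side lower (-1.25) and the other 4 of the 5 called among 24 cytochromes P450 were undecided. The actin gene ACT11 (1.11) and the wall-sensing receptor kinase gene THE1 (0.78) were IBA-side higher. No call was made by limma in 8 cyclin, kinesin and mitosis genes, 12 histone and replication genes, 16 bHLH factors or 17 RING and F-box ligases, whose median interactions were 0.02, 0.02, 0.13 and -0.10. At an unadjusted p under 0.05 these lists held 2, 1, 6 and 7 genes.

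Peroxisomal beta-oxidation and import had 3 measured genes and no call by limma, with 1 gene, AIM1, at an unadjusted p under 0.05. ICL, isocitrate lyase of the glyoxylate cycle, averaged 5.76 ± 0.18 in mutant IBA tips and 4.88 ± 0.19 in Col-0 IBA tips, against 5.06 ± 0.43 in mutant DMSO tips and 4.32 ± 0.32 in Col-0 DMSO tips (SD, n = 3). Its gap was 0.88 on IBA, which was called, and 0.75 on DMSO, which was not (adjusted p = 0.0663), and its interaction was 0.14 (SE 0.28). AIM1, a multifunctional beta-oxidation enzyme, had -0.30 (SE 0.11, adjusted p = 0.149), and PEX4, a peroxisome biogenesis protein, 0.05 (SE 0.13).

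Marker genes were read beside these results. Of 4 root hair markers, XTH26 and EXPA18 were IBA-side lower, while EXPA7 had an interaction of -0.12 (SE 0.10) and SCN1 of -0.03 (SE 0.10). The 4 measured genes of the stem cell niche and meristem list, AGL21, AGL42, BBM and UPB1, had group medians of 5.90 to 6.13. The 1 call among them, UPB1 (-0.82), was undecided, and it is not read as a change in niche or meristem cells. It was lost without mutant IBA replicate 1 or 3, Col-0 IBA replicate 2 or mutant DMSO replicate 3. AT1G65570, the 1 gene kept in the root cap list and placed there by its locus, was undecided at 0.88 (SE 0.20). It averaged 7.56 ± 0.08 in mutant IBA tips and 6.90 ± 0.26 in Col-0 IBA tips, against 7.68 ± 0.16 in mutant DMSO tips and 7.90 ± 0.25 in Col-0 DMSO tips (SD, n = 3). GSTU23, also measured and matched to the root cap list by its locus, was removed from it. GSTU23 stayed in the glutathione transferase list, where it was not called. The 13 genes of photosynthesis and green tissue had group medians of 4.92 in mutant IBA tips and 4.98 in Col-0 IBA tips, against 4.55 in mutant DMSO tips and 4.27 in Col-0 DMSO tips, with 0 calls by limma and 2 genes at an unadjusted p under 0.05. Phloem, xylem and endodermis lists had 5, 1 and 1 measured genes, and CLE44 was the 1 undecided call among them (-1.39, or -0.88 with dim means raised). The part of these cell types in the results was not tested.

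The values have no absolute scale, and 1 measurement outside the genes moves with the groups. The 24 probe sets for poly-A control transcripts averaged 4.86 in mutant IBA tips and 5.26 in Col-0 IBA tips, against 4.95 in mutant DMSO tips and 4.82 in Col-0 DMSO tips. Array medians over all probe sets were 5.17 to 5.29, and the hybridization control probe sets averaged 7.74 to 8.58 per array. Whether poly-A transcripts were added to the RNA was not established here, so the scaling below is not a calibration of RNA input. Scaling each array to the mean of the poly-A probe sets, here called spike scaling, adds 0.538 to every interaction. This moves the median of all probe sets to 0.55, against 0.01 as deposited. On that scale 11874 probe sets were called, 11637 higher and 237 lower, with 1046 on the IBA side and 65 on the DMSO side. Of the 778 IBA-side probe sets 517 stayed on the IBA side and 0 went to the DMSO side, and of the 88 DMSO-side probe sets 31 stayed and 0 went to the IBA side. GH3.3 (-5.18), LBD16 (-1.70), XTH26 (-2.84) and AT4G38080 (-2.99) kept sign and side. Of the 67 genes assigned to a side and named by rule, 43 stayed on their side, 5 became undecided and 19 were not called. Those not called included GH3.17 (-0.06), PUCHI (-0.53), IAA29 (-0.45), AT1G72140 (-0.46), RR16 (-0.47), XTH32 (-0.24), EXPA4 (-0.55) and EXPA18 (-0.31) of the IBA side. The 4 of the DMSO side were UGT73B1, UGT87A2, ATG8F (-0.06) and AT1G60750 (-0.33). The median interaction of the GH3 list was then 0.00 and that of the XTH list 0.16, against -0.54 and -0.37 as deposited. Median centring gave 666 lower and 888 higher calls. The cause of the shift in the controls was not tested.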

How the data were processed

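Per the submitters' processing notes, the authors used affy 1.40.0, and the deposited values are log2 RMA values. RMA corrects background, equalises intensity distributions between arrays and summarises probes, which hides any change shared by most transcripts. Of 22810 ATH1 probe sets, 64 controls were left out. Platform annotation names 1 gene for 13513 probe sets, several for 503 and none for 8730, and RefSeq (TAIR10.1, names alone) updated 13436. The probe set with the highest mean stood for a gene. The 12 arrays were fitted as 4 group means in R 4.3.3 using lmFit and eBayes of limma 3.58.1 (two-sided, Benjamini-Hochberg within each contrast, called under 0.05). Replicates correlated at r = 0.995 to 0.998 across probe sets, and no 2 arrays were identical. Arrays have no read depth, and 3 per group limit the precision: the median SE was 0.136 for the interaction and 0.096 for each gap.

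Per the labels, 100 ng of RNA was amplified and labelled. The titles give 0 h for the DMSO samples where source and treatment labels give 6 h, and shorten the mutant to ibr3, and 6 h and the triple mutant were used. Named genes were the 8 largest interactions of each sign on either side, the 4 of each sign among undecided calls, up to 4 called members per list by smallest p, and auxin response genes whether called or not. Other members of lists are named where a count needs them. The members, lists, tests and alternatives were chosen with earlier results of these data known, 14 wrong matches were removed from lists after values were seen, and 6 of 51 lists had no measured gene. On simulated data of 22746 probe sets, an interaction of 1 log2 unit was called in 100% of 33 IBA-side and 91.2% of 34 DMSO-side cases, and one of 0.5 in 23.5% and 30.3%. Of those called at 0.5, 2 of 8 on IBA and 3 of 10 on DMSO were given a side and the rest were undecided, and none was put on the wrong side. The simulation changed only the mutant on 1 medium, left no gap on the other, and drew normal noise of equal spread in all groups. It also gave only 155 calls in all, against 1478 in the data, so the Benjamini-Hochberg cutoffs for the call and the side differed. Its rates therefore need not hold for these data, which include genes with unequal spread or gaps on both media.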

Additional observations from a re-analysis of the deposited data

Results flagged for a closer look

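These results were singled out because they are a difference between the genotypes in the same contrast, tested as an interaction, or because they lie outside the probe sets that name 1 gene. The genotypes differed in their response to IBA at 1478 probe sets, of which 778 had the larger gap on IBA and 88 the larger gap on DMSO. The leading gene of each class and sign was GH3.3 (-5.72) and AT1G62510 (2.89) on the IBA side, AT4G38080 (-3.53) and AT5G62330 (0.74) on the DMSO side, and AT1G14120 (-2.60) and AT5G04120 (1.88) among the undecided. Among the 9233 probe sets that name no gene or several, 710 were called for the interaction, which is 7.69%, against 6.5% of all probe sets, and these were not described by function. The mean of the 24 poly-A control probe sets on the Col-0 IBA arrays was 5.26, with single arrays at 5.31, 5.51 and 4.96, against 4.76 to 5.02 on the other 9 arrays. Replicate 3 of that group therefore lay within the range of the other groups.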

How the results depend on the processing

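In 9 alternative settings and 12 fits that each left out 1 array, 0 of the 778 IBA-side probe sets became DMSO-side and 0 of the 88 DMSO-side probe sets became IBA-side. All these fits reuse the same arrays, so a change to the opposite side was unlikely in advance. Not all kept their side: 44 of the 88 did without mutant DMSO replicate 1 and 31 with spike scaling. Of the 778, 600 did without mutant IBA replicate 1 and 517 with spike scaling. The interaction calls numbered 734 when the fit and the adjustment were repeated on 1 probe set per gene (767 genes with p-values adjusted over all probe sets), 751 at an adjusted p under 0.01 and 11874 with spike scaling. The IBA side numbered 381 and 452 in the first 2 of these, and the DMSO side 36 and 25. The smaller counts come from fewer probe sets tested and a stricter threshold. With each gap called separately, 166 calls had a gap on DMSO alone, 1070 on IBA alone, 32 called gaps of opposite sign, 48 of the same sign and 162 neither. Leaving out 1 array gave 1109 to 1620 interaction calls, 614 to 863 on the IBA side and 45 to 100 on the DMSO side. With the replicate block the counts were 1440, 756 and 81, and with the replicate block within medium 1494, 753 and 112. Same-numbered arrays correlated in their deviations at 0.023 to 0.165 within a medium and at -0.209 to 0.085 between media, and were not taken as pairs because some pairs lay below 0.1. With the replicate block AT2G23540 and AT2G31110 were not called (adjusted p = 0.0773 and 0.053), and AT1G68850, AT1G54410, BGLU46, EXPA4 and JAL22 were undecided. With trend and robust options AT1G49030 and JAL22 of the IBA side were undecided, BGLU28 was not called, and the undecided AT1G14120, AT4G23670 and AT5G43520 were not called (adjusted p = 0.0703, 0.0917 and 0.0649). Interactions changed sign with spike scaling for AT1G14130 (0.0632), AT1G54410 (0.0372), ATG8G (0.0774), CR4 (0.11), IAA18 (0.24), IAA20 (0.47), IAA30 (0.16), IAA34 (0.53) and PID2 (0.48). With median centring IAA34 (0.0513) and PID2 (0.0007) changed sign, and with quantile normalization IAA20 (0.0371). Leaving out 1 array gave ranges that span 0 for IAA20 (-0.278 to 0.0731), IAA34 (-0.0996 to 0.147), PID2 (-0.168 to 0.0438) and YUC11 (-0.0734 to 0.255). Of these genes only AT1G54410 and ATG8G were called as deposited. Beyond what the settings' construction shows, the cause was not tested.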
